A study of Mus musculus with 6 samples.

Results

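Small leucine-rich proteoglycans are secreted matrix proteins built around a run of leucine-rich repeats, most of which carry chondroitin, dermatan or keratan sulphate chains. They bind collagen fibrils and set fibril width and spacing, and several also bind growth factors or cell surface receptors. In the brain their transcripts are known mainly from fibroblasts of the meninges and of the sheath around larger vessels, while neurons carry other proteoglycans, the lecticans, in their surrounding matrix.

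The report describes 9 genes of this family, Ogn, Omd, Dcn, Lum, Fmod, Bgn, Prelp, Aspn and Kera, of 19938 genes measured. They were chosen by gene symbol after the log2 difference between SAHA and saline in these same 6 libraries had been seen. That difference is therefore given for them as a description, with no test. All 9 were measured, each by 1 probe set, and none was dropped by a filter.

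All 6 libraries were made from frontal cortex, taken from wild-type mice of the 129S6/SvEv strain aged 8 to 12 weeks. In 3 libraries the mice had received 20 mg per kg SAHA (suberoylanilide hydroxamic acid, vorinostat), an inhibitor of zinc-dependent histone deacetylases, and in 3 they had received vehicle, named saline in the sample titles. Injections ran for 21 days, and the cortex was taken 1 day after the last of them. The labels do not say that each library is a separate mouse, so standard errors (SE) and p-values describe how these samples vary, and that variation may be technical.

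Values are log2 signals of whole-transcript arrays. Precision is limited by having 3 arrays a group, and over all genes a difference had a median SE of 0.0771. As markers of the tissue, the neuronal genes Snap25 and Rbfox3 had mean signals in saline of 12.9 and 10.7. Saline replicate 1 had the X-inactivation RNA Xist at 10.9, where the 5 other libraries lay between 4.63 and 4.88. SAHA replicate 3 had the Y-linked gene Eif2s3y at 7.80, where the others lay between 9.18 and 9.25. For the 9 genes, the other family members, the genes beside them and the defining fibroblast genes, a value that moved by over 1.5 times without these libraries is given both ways.

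With all 6 libraries, the 3 of the 9 genes that had groups apart were neighbours in the genome. Aspn, Omd and Ogn, which stand next to each other on chromosome 13, were lower in all 3 SAHA libraries than in any saline library, by 0.21 to 0.38 on the log2 scale. The 6 genes on chromosomes 1, 10 and X had overlapping groups and differences between -0.10 and -0.00076. This split depended on the libraries used. Without saline replicate 1, Kera on chromosome 10 also had groups apart, at -0.23, where Aspn was at -0.37, Omd at -0.21 and Ogn at -0.21. Without saline replicate 3, Bgn on X had groups apart, at -0.074. Of all genes measured, 2065 (10.4%) had groups apart with SAHA lower and 2708 (13.6%) with SAHA higher. After median centring of each array these counts were 3251 and 1791. The same contrast chose the genes, so their count of 3 of 9 is set beside that share and nothing is read from it. Over all genes, limma with Benjamini-Hochberg adjustment called 0 of 19938 (0%), at a lowest adjusted p of 0.116, while 17.4% had an unadjusted p under 0.05. The call count was 27 when genes below the median signal were left out and 28 with a variance trend.

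**Figure D1:**
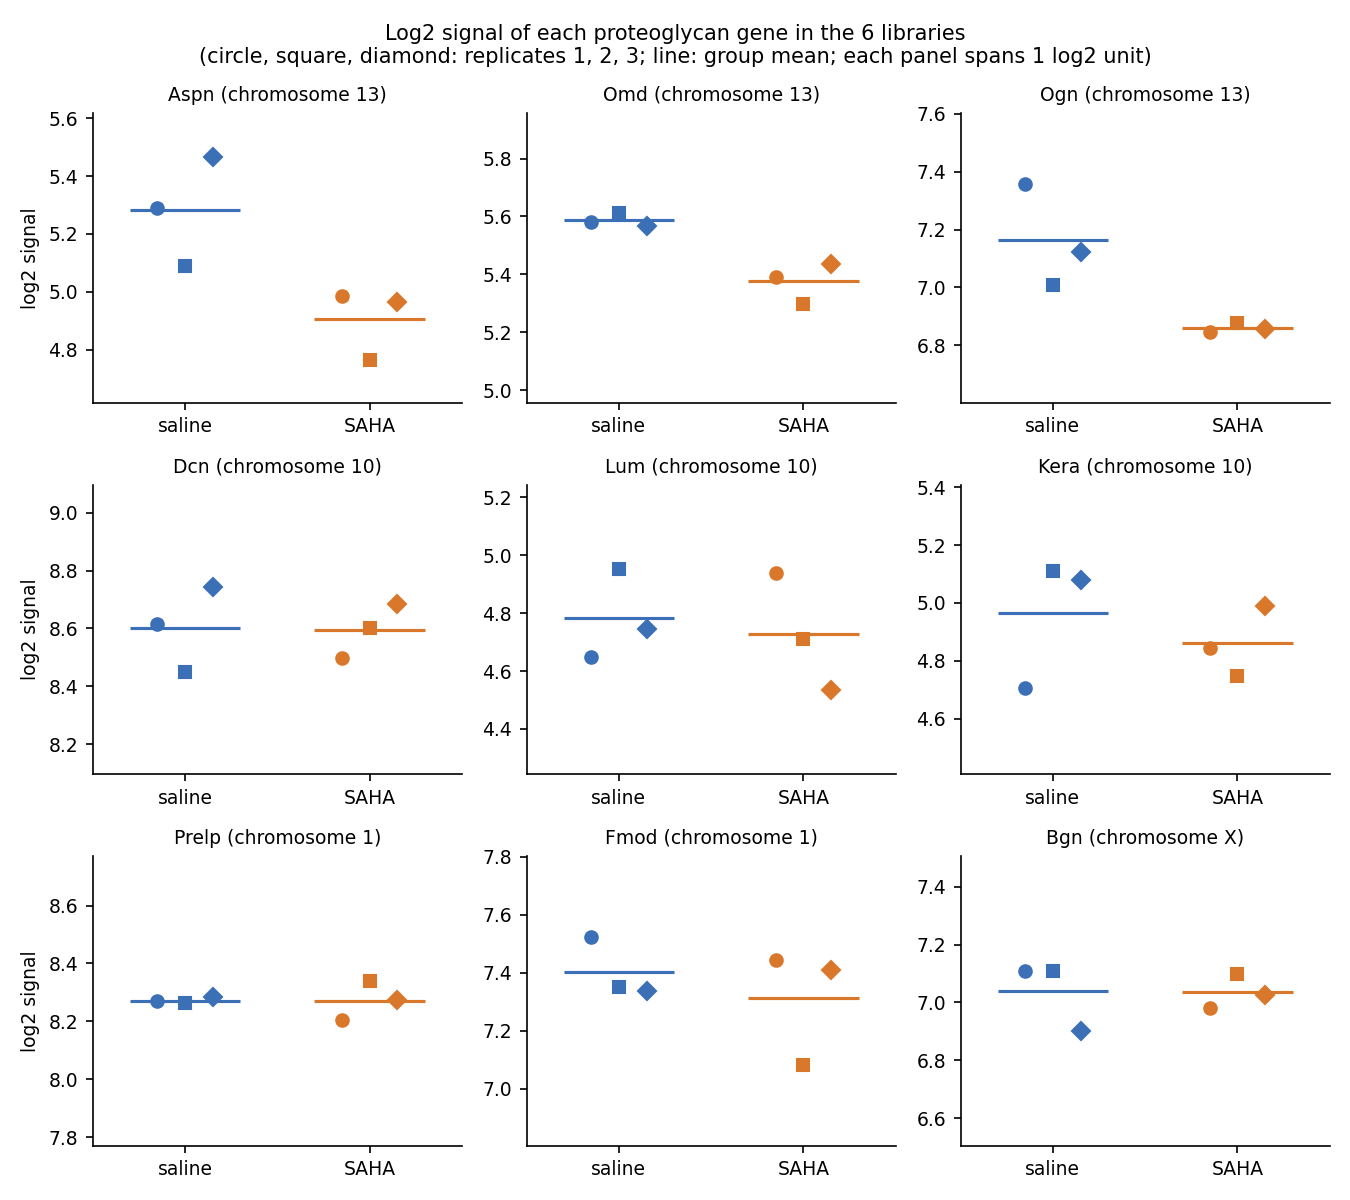
Each panel plots the log2 signal of 1 gene in the 3 saline and 3 SAHA libraries, with a line at the group mean and the same span of 1 log2 unit. The groups do not overlap for Aspn, Omd and Ogn in the top row and overlap for the 6 other genes.

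Ogn encodes osteoglycin, also called mimecan, a class III member of the family that takes part in collagen fibril assembly. Its log2 signal was 7.36, 7.01 and 7.12 in saline replicates 1 to 3 and 6.85, 6.88 and 6.86 in SAHA replicates 1 to 3. The SAHA libraries lay within a narrow band, with an SD of 0.015, against 0.18 in saline, and all of them lay below the lowest saline library. The difference was -0.30 (SE 0.0903), a level 1.23-fold higher in saline. Saline replicate 1, the library that stood apart in Xist, was the highest, and without it the difference was -0.21. With SAHA replicate 3 left out as well it was also -0.21.

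Aspn encodes asporin, a class I member with a stretch of aspartate residues that binds collagen and holds back transforming growth factor beta. It was at 5.29, 5.09 and 5.47 in saline and at 4.99, 4.77 and 4.97 in SAHA. The lowest saline library was 0.10 above the highest SAHA library. Its difference of -0.38 (SE 0.107) had the greatest size among the 9 genes, a level 1.30-fold higher in saline. It was -0.40 without saline replicate 1 and SAHA replicate 3, and -0.28 without saline replicate 3, the highest library.

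Omd encodes osteomodulin, or osteoadherin, a class II keratan sulphate proteoglycan first known from mineralised tissue. The saline libraries were at 5.58, 5.61 and 5.57 and the SAHA libraries at 5.39, 5.30 and 5.44. Both groups were tight, with SDs of 0.024 and 0.070, and the gap between them was 0.13. Its difference was -0.21 (SE 0.0613). It was -0.24 without the libraries that stood apart, and -0.32 after either quantile or cyclic loess normalization. The groups of Aspn, Omd and Ogn were also apart after median centring, quantile and cyclic loess normalization.

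Signal level bears on these values. The 5th to 95th percentile of the mean signals of 1194 chemosensory receptor genes, whose products act in the nose, ran from 2.90 to 6.34. Omd and Aspn, with mean signals of 5.48 and 5.09, lay inside that range, as did Lum and Kera, and Ogn lay above it at 7.01. Genes as dim as Omd and Aspn, in the second decile of signal, had a median difference of 0.11, and 2.51% of them had groups apart with SAHA lower. In the sixth decile, which holds Ogn, the median difference was 0.019 and 9.98% were apart and lower. Whether the probe sets of the dim genes measure their transcripts above background was not tested.

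**Figure D2:**
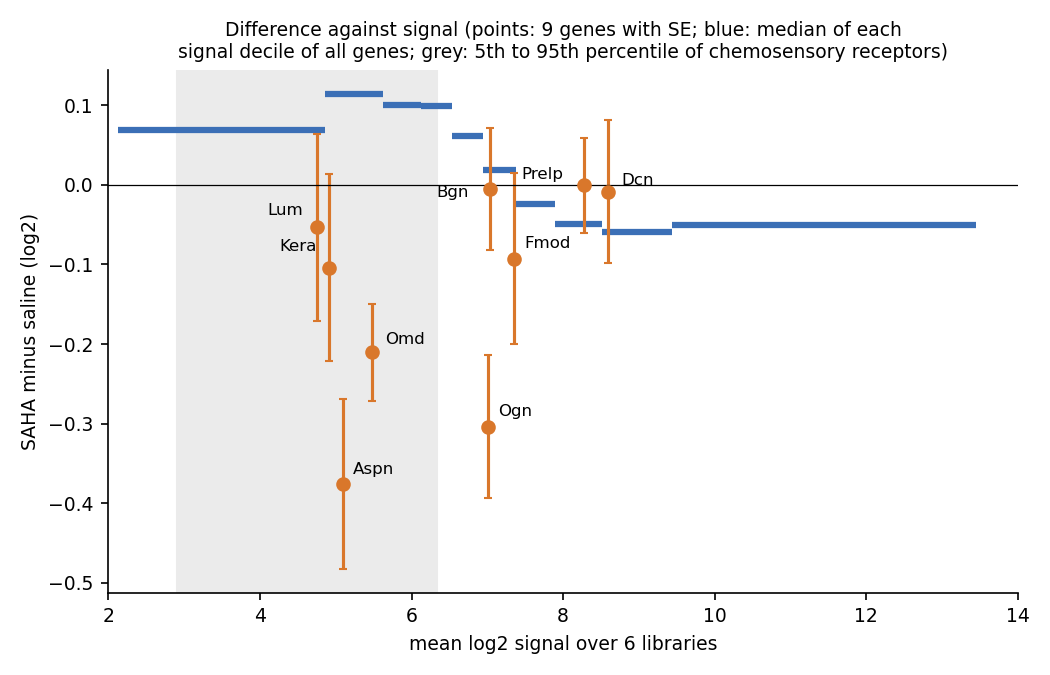
Points give the SAHA minus saline difference (log2) of the 9 genes, with SE bars, against mean log2 signal, and blue lines give the median difference in each decile of all genes ordered by signal. The medians run from 0.11 in the second decile to -0.059 in the ninth. Aspn, Ogn, Omd, Kera, Lum, Fmod and Bgn lie below the medians at their signals, and Dcn and Prelp lie above.

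In the RefSeq gene table, the order on chromosome 13 is Ecm2, Aspn, Omd and Ogn, and all 4 lie within the span of Cenpp, a centromere protein gene annotated on the opposite strand. Ecm2, a matrix protein gene with leucine-rich repeats that is not among the 9, was at 6.41, 6.10 and 6.29 in saline and 6.05, 6.20 and 6.13 in SAHA. Its groups overlapped, and its difference was -0.14 (SE 0.0893, adjusted p = 0.440 in limma). Saline replicate 1 was its highest library, and without that library and SAHA replicate 3 the difference was -0.069. Cenpp was at 4.72, 5.09 and 5.19 in saline and 4.61, 4.46 and 4.74 in SAHA, with a difference of -0.40 (SE 0.128, adjusted p = 0.196 in limma). Its groups overlapped narrowly, through saline replicate 1, and without both libraries the difference was -0.60. Nol8, a nucleolar protein gene on the far side of Ogn that shares a start region with Cenpp, differed by -0.16 (SE 0.0774, adjusted p = 0.333 in limma). It too had overlapping groups, and its difference was -0.091 without both libraries.

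The start regions of Aspn, Omd and Ogn are shown because these 3 neighbours had lower means in SAHA. Each window runs from 250 bases before to 50 bases after the annotated start, from RefSeq with build GRCm38.p6, on the plus strand. Capitals mark matches on either strand to any of 5 motifs. These are the TATA box letters TATAAA, the Sp1 box letters GGGCGG, the AP-1 letters TGANTCA, the E-box letters CANNTG, and the letters bound by TEAD factors, GGAATG. In the Ogn window the 2 TATAAA matches overlap each other.
Aspn, chr13:49544193-49544492: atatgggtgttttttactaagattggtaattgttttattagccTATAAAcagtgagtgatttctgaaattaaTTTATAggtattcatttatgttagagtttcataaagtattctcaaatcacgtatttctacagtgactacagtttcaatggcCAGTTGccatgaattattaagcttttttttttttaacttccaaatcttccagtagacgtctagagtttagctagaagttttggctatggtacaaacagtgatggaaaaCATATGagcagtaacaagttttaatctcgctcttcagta
Omd, chr13:49582212-49582511: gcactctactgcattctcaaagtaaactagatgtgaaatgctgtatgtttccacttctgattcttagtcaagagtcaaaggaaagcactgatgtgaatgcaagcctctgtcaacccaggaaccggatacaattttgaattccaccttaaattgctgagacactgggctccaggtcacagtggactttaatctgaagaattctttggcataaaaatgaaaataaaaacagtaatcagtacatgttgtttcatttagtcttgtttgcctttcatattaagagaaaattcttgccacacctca
Ogn, chr13:49607765-49608064: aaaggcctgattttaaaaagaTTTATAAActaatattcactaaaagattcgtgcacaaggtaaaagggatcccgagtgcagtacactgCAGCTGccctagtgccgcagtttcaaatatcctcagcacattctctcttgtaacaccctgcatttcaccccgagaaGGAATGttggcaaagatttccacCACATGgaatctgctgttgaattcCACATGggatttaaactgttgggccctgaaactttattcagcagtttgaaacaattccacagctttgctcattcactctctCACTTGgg

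The CG dinucleotide was found 3 times in Aspn, 1 time in Omd and 4 times in Ogn, where the median over 32851 RefSeq windows was 7. Of all windows, 31.4% held fewer than Ogn. Low counts were not particular to these 3 genes. In the other family windows, Kera held 1, Fmod and Nyx 3, Ecm2 4, Optc 6, Prelp and Chadl 7, Bgn 9 and Chad 13. Epyc held 2 and 1 in its 2 windows, and Podn 41 and 7. The Cenpp and Nol8 windows each held 37. TATAAA was found in the Aspn and Ogn windows, and in 13.6% of all windows. Its matches lay far upstream, beginning 207 and 178 bases before the start in Aspn and 229 and 227 bases before it in Ogn. CANNTG was found 2 times in Aspn and 4 times in Ogn, and in 72.3% of all windows. GGAATG was found once, in Ogn, and in 14.7% of all windows. Of the 5 motifs, 0 were found in the Omd window. Across the 7 genes of the 9 that have a window, GGGCGG was found in Bgn, 3 times, against 35.7% of all windows, and TGANTCA in 0, against 7.81%. Windows of Dcn and Lum were not used here.

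**Figure D3:**
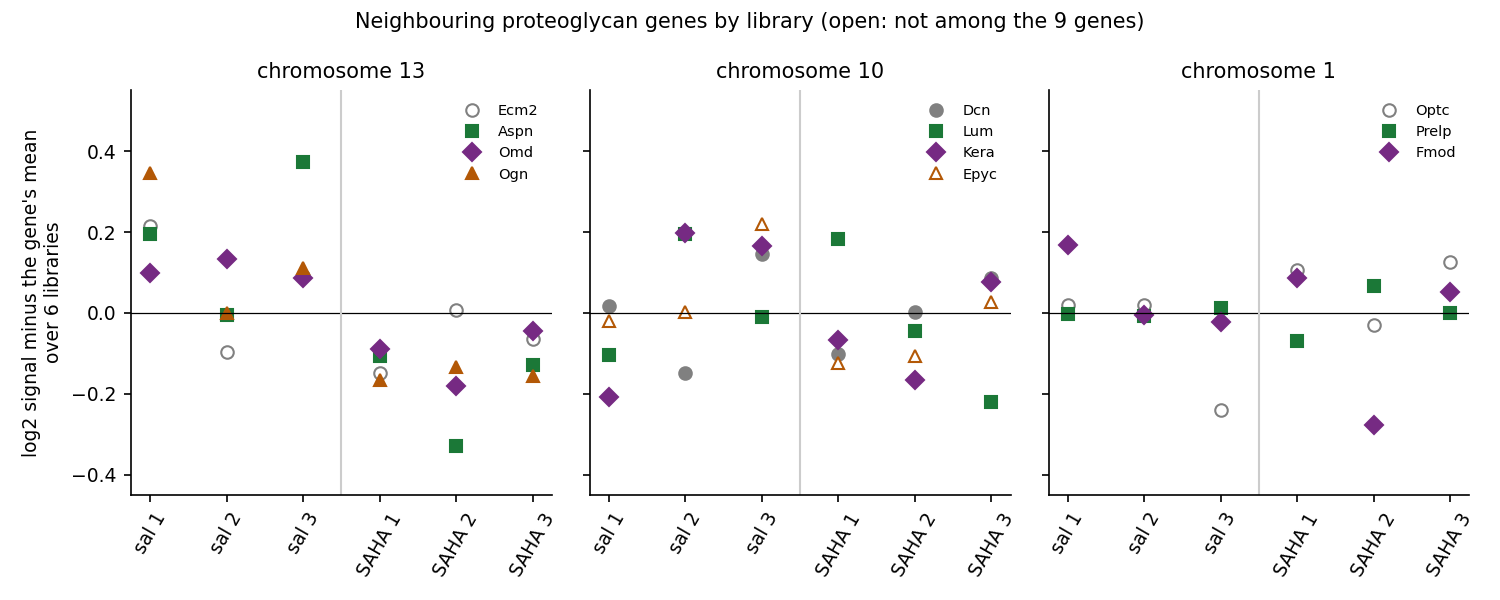
Log2 signal minus each gene's mean over the 6 libraries is plotted by library for the neighbouring family genes of chromosomes 13, 10 and 1. On chromosome 13 the mean of Aspn, Omd and Ogn runs from 0.042 to 0.21 in saline and from -0.22 to -0.11 in SAHA. Saline and SAHA points mix for Ecm2 on chromosome 13, and for the genes on chromosomes 10 and 1.

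The neighbours on chromosome 10 are Dcn, Lum, Kera and Epyc. Dcn encodes decorin, a class I proteoglycan that coats collagen fibrils, binds transforming growth factor beta and engages the growth factor receptors Egfr and Met. It was at 8.62, 8.45 and 8.74 in saline and at 8.50, 8.60 and 8.68 in SAHA. The SAHA range lay inside the saline range, and the difference was -0.0087 (SE 0.0896), or -0.047 without saline replicate 1 and SAHA replicate 3.

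Lum encodes lumican, a keratan sulphate proteoglycan that spaces fibrils in the cornea. It was at 4.65, 4.95 and 4.74 in saline and at 4.94, 4.71 and 4.54 in SAHA, a difference of -0.053 (SE 0.117). The lowest and the second highest of the 6 values were both SAHA libraries. Its difference was 0.043 without SAHA replicate 3, its lowest library, and -0.023 without saline replicate 1 as well. Kera encodes keratocan, its close relative in the cornea. Kera was at 4.71, 5.11 and 5.08 in saline and at 4.85, 4.75 and 4.99 in SAHA, a difference of -0.10 (SE 0.118). Saline replicate 1 was its lowest library. Without it the groups did not overlap and the difference was -0.23, and without SAHA replicate 3 as well it was -0.30. Epyc, the class III gene epiphycan at the end of this row and not among the 9, differed by -0.14 (SE 0.0833, adjusted p = 0.423 in limma), or -0.23 without both libraries.

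On chromosome 1 the row is Optc, Prelp and Fmod. Prelp encodes a basic heparin-binding proteoglycan that links basement membranes to collagen. It was at 8.27, 8.26 and 8.28 in saline and at 8.20, 8.34 and 8.27 in SAHA. With the smallest range of the 9 genes, 0.14, its difference was -0.00076 (SE 0.0601), or -0.0028 without saline replicate 1 and SAHA replicate 3. The value was 0.048 after quantile normalization and -0.040 after median centring. Fmod encodes fibromodulin, which binds type I collagen and guides its cross-linking. Its values were 7.53, 7.35 and 7.34 in saline and 7.44, 7.08 and 7.41 in SAHA, a difference of -0.093 (SE 0.107). SAHA replicate 2 was low, and without it the difference was 0.023. Optc, the class III gene opticin of the eye, differed by 0.14 (SE 0.0889, adjusted p = 0.449 in limma).

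Bgn, on the X chromosome, encodes biglycan, the class I relative of decorin, which as a soluble protein engages the innate receptors Tlr2 and Tlr4. It was at 7.11, 7.11 and 6.90 in saline and at 6.98, 7.10 and 7.02 in SAHA. All SAHA values fell within the saline range, and the difference was -0.0051 (SE 0.0766), or 0.035 without saline replicate 1 and SAHA replicate 3. Without saline replicate 3, its lowest library, all SAHA values were below the other two and the difference was -0.074.

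Taking the 9 genes as a list, the median difference was -0.093, where the median of all genes was 0.011. The mean was negative for all 9 and for 47.1% of all genes, yet 3 of the 9 lay within 0.01 of 0, and Dcn, Bgn, Prelp, Lum and Fmod had the other sign in at least 1 of the 12 alternatives. The list median lay between -0.16 without SAHA replicate 1 and -0.045 without SAHA replicate 2. The mean over the 9 genes, relative to each gene's own mean, was 0.065, 0.047 and 0.080 in saline and -0.043, -0.11 and -0.038 in SAHA. For Aspn, Omd and Ogn alone the profile was 0.21, 0.042 and 0.19 in saline and -0.12, -0.22 and -0.11 in SAHA. Within groups the 9 genes varied with a median SD of 0.13, against 0.0962 over all genes. In whole tissue, fewer cells that make these transcripts and less RNA per cell cannot be told apart.

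Other measured members of the family lay mostly on the other side. Of these 8 genes, 6 were higher and 2 lower in SAHA, with a median of 0.14. That median was 0.054 after either quantile or cyclic loess normalization, and it stayed above 0 in each of the 10 alternatives run on it. In limma 0 of the 8 passed over all genes, at a lowest adjusted p of 0.171, and 3 had an unadjusted p under 0.05, all of them higher. Over all genes 17.4% had one. For 4 of the 8 the groups were apart with SAHA higher, where all genes gave 13.6%, and for 0 with SAHA lower. After quantile or cyclic loess normalization these counts were 3 and 1, and after median centring, or without saline replicate 1 and SAHA replicate 3, they were 4 and 1. All of the 8 but Nyx lie in the third to sixth signal deciles. In those deciles the median differences of all genes ran from 0.019 to 0.10. There 14.7% to 24.5% of genes were apart and higher, and 2.41% to 9.98% apart and lower.

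Chadl, a chondroadherin-like matrix protein of cartilage, was at 6.89, 6.81 and 6.88 in saline and at 7.03, 7.14 and 7.39 in SAHA. Its difference of 0.33 (SE 0.0944, adjusted p = 0.171 in limma) was 0.24 without the libraries that stood apart. Podn, the class V gene podocan, was at 6.68, 6.59 and 6.78 in saline and at 6.96, 6.90 and 6.85 in SAHA, with a difference of 0.22 (SE 0.0697, adjusted p = 0.190 in limma). The class IV gene Chad, chondroadherin, differed by 0.17 (SE 0.0705), and Nyx, the class IV gene nyctalopin of retinal bipolar cells, by 0.15 (SE 0.0657). Both had all SAHA values above all saline values, at adjusted p of 0.268 and 0.291 in limma. Without saline replicate 1 and SAHA replicate 3 the difference of Nyx was 0.091. The probe set used for Nyx had a mean signal of 9.22, and a second, at 5.82, differed by 0.33. Which of them measures the Nyx transcript was not tested. Podnl1, the relative of podocan, differed by 0.099 (SE 0.0868), which became 0.050 without both libraries and 0.0022 with quantile normalization.

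**Figure D4:**
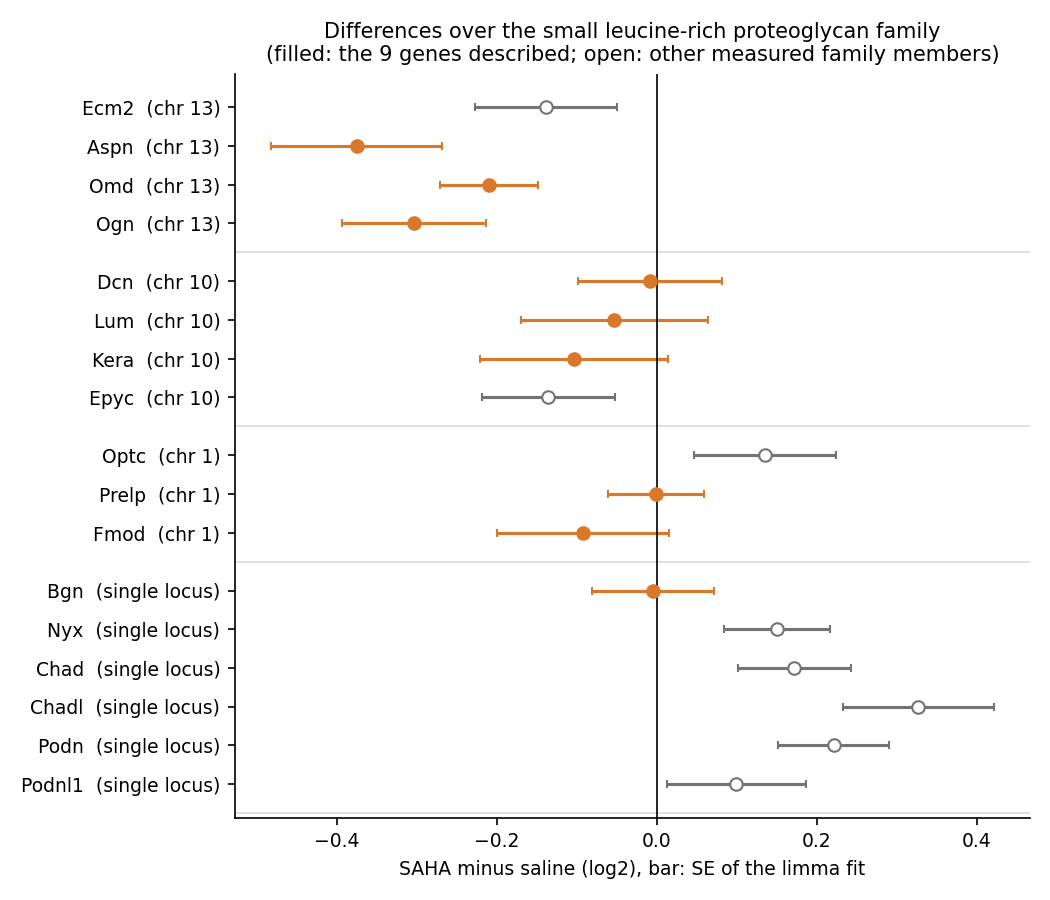
SAHA minus saline differences (log2) with SE bars are drawn for the 9 genes (filled) and the 8 other measured family genes (open), ordered by chromosome. The chromosome 13 genes lie between -0.38 and -0.14, and the 6 open points above 0 run from 0.099 to 0.33.

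Collagens, the fibrils to which these proteoglycans attach, did not share the direction of Aspn, Omd and Ogn. Of 12 collagen genes, 11 were higher in SAHA, with a median difference of 0.18, and 9 had groups apart with SAHA higher, where all genes gave 13.6%. In the third to sixth signal deciles, where most of these collagens lie, 14.7% to 24.5% of genes were apart and higher. In limma 0 of 12 passed over all genes, at a lowest adjusted p of 0.145, and 8 had an unadjusted p under 0.05, all higher, as did 2364 higher genes of all 19938. The median was between 0.13 and 0.20 in the 10 alternatives, and 7 genes had groups apart with SAHA higher after quantile normalization. Col2a1, the cartilage fibril chain, differed by 0.29 (SE 0.0892), and Col6a3 and Col6a2, chains of the microfibril collagen that binds decorin and biglycan, by 0.25 (SE 0.0705) and 0.24 (SE 0.0590). The fibril chains Col1a1, Col1a2 and Col3a1, named outside the rule for named genes, differed by 0.21, 0.22 and 0.20, and Col12a1 by -0.025.

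Transcripts around the family's biosynthesis and turnover lay on both sides of 0. Among 22 enzymes that build chondroitin and dermatan sulphate chains, 12 were higher and 10 lower, with a median of 0.0044 whose sign turned in 8 of 10 alternatives. In limma 0 of them passed over all genes. Chst7, a chondroitin sulphotransferase, was at 5.43, 5.42 and 5.58 in saline and at 5.79, 5.94 and 5.69 in SAHA, a difference of 0.33 (SE 0.0832, adjusted p = 0.147 in limma). Ust, a uronyl sulphotransferase, differed by -0.25 (SE 0.0905), and Fam20b, the kinase that primes the linkage sugar, by -0.19 (SE 0.0682), both at adjusted p of 0.226 in limma. Of 8 keratan sulphate enzymes 5 were higher and 3 lower, with a median of 0.087 that stayed above 0 in each of 10 alternatives. Among them 0 had groups apart, where all genes gave 23.9%.

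Proteases and inhibitors that process the matrix were split, with 7 of 14 higher and 7 lower. The aggrecanase Adamts4 was at 5.86, 5.97 and 6.04 in saline and at 6.27, 6.19 and 6.55 in SAHA, a difference of 0.38 (SE 0.102, adjusted p = 0.154 in limma). Mmp2, a gelatinase, and Pcolce, an enhancer of procollagen processing, differed by 0.14 (SE 0.0653) and 0.12 (SE 0.0644). These 3 genes of the 14 had groups apart with SAHA higher, where all genes gave 13.6%, and 0 were apart and lower. The gap between groups was 0.16 for Adamts4, 0.027 for Mmp2 and only 6e-06 for Pcolce. After quantile normalization 1 of the 14 was apart and higher and 1 apart and lower. The 18 signalling ligands and receptors were split as well, with 9 higher and 9 lower. Tgfbr3, or betaglycan, differed by 0.10 (SE 0.0672) and was the 1 of them with groups apart, where all genes gave 23.9%. In limma 0 genes of both lists passed over all genes.

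Proteoglycans of other kinds were set beside the family. Brain lecticans and their partners in perineuronal nets had 6 of 12 higher and a median of -0.0066, which was 0.0076 after quantile normalization. Tnr, the glycoprotein that joins lecticans into nets, and Hapln4, a link protein, had groups apart with SAHA lower, at -0.097 (SE 0.0556) and -0.14 (SE 0.0684). Both overlapped after quantile normalization, where 0 of the 12 were apart and lower. Cspg4, the NG2 proteoglycan of oligodendrocyte precursors and pericytes, differed by 0.16 (SE 0.0724). Of 12 heparan sulphate proteoglycans 8 were higher, with a median of 0.071. Syndecan genes were found on both sides, with Sdc4 at 0.32 (SE 0.0923) and Sdc2 at -0.25 (SE 0.0711), and Gpc2, a glypican, was at 0.22 (SE 0.0754). In limma 0 of these 24 genes passed over all genes.

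**Figure D5:**
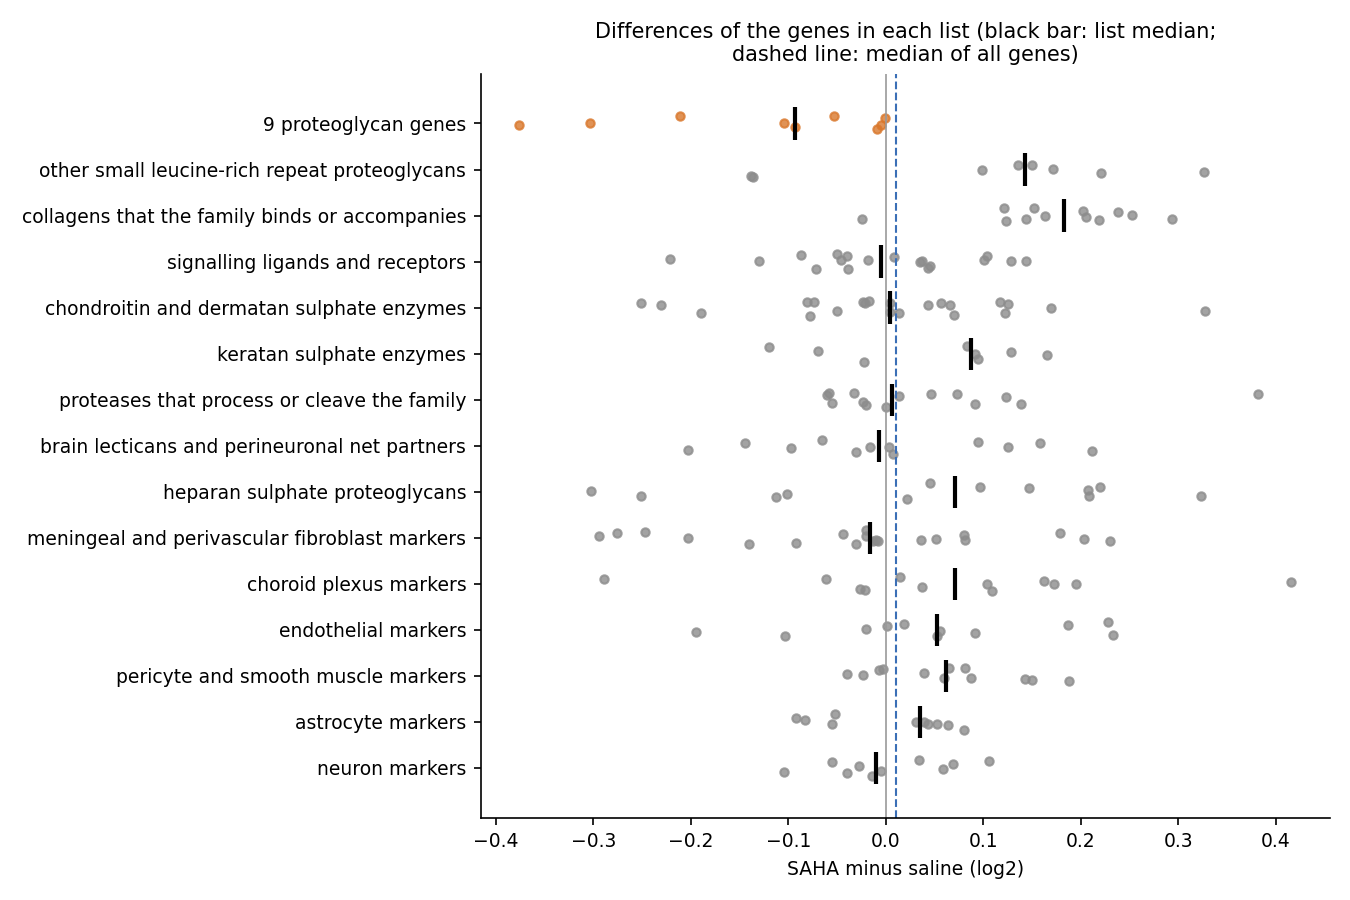
Each point is the SAHA minus saline difference (log2) of 1 gene in the list named on the left, with a black bar at the list median and a dashed line at the median of all genes. The 9 proteoglycan genes have a median of -0.093 and the 12 collagens a median of 0.18.

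Markers of meningeal and perivascular fibroblasts were read because these cells are the main known source of the family in brain. All 20 were measured, 13 of them lower and 7 higher in SAHA, with a median of -0.017 that turned sign in 1 of 10 alternatives. The sum of their linear signals, as log2, ran from 11.51 to 11.55 in saline libraries and from 11.44 to 11.56 in SAHA libraries, so the groups overlapped. In limma 0 of the 20 passed over all genes, and an unadjusted p under 0.05 was reached by 3 lower and 3 higher genes. Over all genes 17.4% reached it. Zic1, a transcription factor of the meninges, was at 7.12, 7.06 and 7.20 in saline and at 6.85, 6.89 and 6.89 in SAHA, a difference of -0.25 (SE 0.0615, adjusted p = 0.145 in limma). Serping1, an inhibitor of complement C1, differed by -0.29 (SE 0.112), and Dpep1, a dipeptidase, by 0.23 (SE 0.0879). Groups were apart for 2 lower and 3 higher genes of the list, or 25.0%, where all genes gave 23.9%. Igf2, a growth factor gene named here after its values were seen, was at 7.69, 7.75 and 7.73 in saline and at 7.89, 7.87 and 8.02 in SAHA, a difference of 0.20 (SE 0.0641, adjusted p = 0.190 in limma).

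The defining fibroblast genes were read by level. Slc6a13, a GABA transporter of the leptomeninges, was at 7.57, 7.32 and 7.65 in saline and at 7.39, 7.26 and 7.47 in SAHA, with a difference of -0.14 (SE 0.0992). Foxc1, a meningeal transcription factor, was at 6.59, 6.48 and 6.39 in saline and at 6.14, 6.54 and 6.17 in SAHA, with a difference of -0.20 (SE 0.114). Without saline replicate 1 and SAHA replicate 3 the difference of Foxc1 was -0.092, and its mean signal lay just above the receptor range. Both had overlapping groups, at adjusted p of 0.480 and 0.386 in limma. The part of fibroblast content in the lower values of Aspn, Omd and Ogn was not tested.

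Markers of other cell types gave medians between -0.0097 for 10 neuronal genes and 0.070 for 12 choroid plexus genes. The neuronal median turned sign in 5 of 10 alternatives and the choroid plexus median in 2. Summed choroid plexus signals overlapped between groups, from 9.33 to 9.67 in saline and 9.45 to 9.50 in SAHA. Its carrier gene Ttr ranged from 6.49 to 8.06 in saline and from 6.71 to 7.11 in SAHA, and its defining gene Kl differed by 0.014 (SE 0.0589). Aqp1, a water channel of that epithelium, differed by 0.42 (SE 0.0685, adjusted p = 0.116 in limma). Medians were 0.052 for 11 endothelial genes, 0.062 for 12 pericyte and smooth muscle genes and 0.035 for 10 astrocyte genes, the last at -0.0041 after median centring. Cldn5 and Pecam1, defining genes of endothelium, differed by 0.19 (SE 0.0807) and -0.021 (SE 0.0736), both with overlapping groups. Groups were apart for 3 of 11 endothelial, 3 of 12 pericyte and smooth muscle, 2 of 10 astrocyte and 5 of 10 neuronal genes. All genes gave 23.9%. In endothelium they were Abcb1a (0.23), Slco1a4 (0.23) and Itm2a (-0.19), and in the pericyte list Cnn1 (0.19), Pdgfrb (0.15) and Acta2 (0.14). Astrocyte genes were Aldoc (0.080) and Slc1a2 (0.052), and the largest neuronal ones Slc17a7 (0.11), Tubb3 (-0.10) and Rbfox3 (0.069). Of the 5 neuronal genes with groups apart, 3 were higher and 2 lower. These counts were 0 and 2 after median centring, and 4 and 0 after quantile normalization. In limma 0 genes of these lists passed over all genes.

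Genes with the library pattern most like the mean of the 9 were found by the mean absolute difference between centred log2 values over the 6 libraries. Among 15453 genes that varied at least as much as that mean pattern, the nearest were Gabarap, Lsg1, Slc41a1, Noc4l, Nfyc, Ddost, Tmcc2, Plekhb2, Yif1a and Actn1. Their distances lay between 0.013 and 0.020. The 9 genes themselves lay farther from their own mean pattern, from 0.041 for Omd to 0.15 for Lum. The genes named as nearest were picked for closeness among all those candidates, so this comparison cannot show whether the 9 profiles are unlike. Of the 9, Omd lay nearest to the mean pattern. Gabarap, which encodes a protein of autophagosome membranes, was at 10.42, 10.38 and 10.42 in saline and at 10.32, 10.21 and 10.28 in SAHA.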

How the data were processed

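Each of the 6 libraries was hybridised to 1 biotin-labelled whole-transcript array. Deposited values are log2 signals, and Affymetrix Expression Console and RMA were used, per the submitters' processing notes; a genome build is not given in the sources used here. Of 35556 probe sets, the platform annotation gives 1 gene symbol to 21789, several to 1621 and none to 12146. The brightest single-symbol probe set by mean over 6 arrays stood for a gene. The comparison used limma 3.58.1 (lmFit, then eBayes) under R 4.3.3, two-sided, without a block or filter, adjusted by Benjamini-Hochberg over 19938 genes at 0.05. Differences are SAHA minus saline.

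Groups are "apart" where all SAHA values lie on one side of all saline values. The genes and all 14 lists were chosen with earlier results of these data known. Named are the 9 genes, the other family members, from each other list at most 3 genes of greatest difference with groups apart, defining markers, and the 10 genes nearest in pattern. Tsku, Enpp2, Prlr and Ly6c1 were not analysed here. limma was tested on simulated data with planted differences larger than any among the 9 genes, so detection at their size was not tested. Same-numbered replicates did not deviate together (correlations of -0.10, -0.079 and 0.015 across genes), so they were not paired. Scaling, probe set summary, variance model, dim genes and left-out libraries were varied. Protein sequences were not used here.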

Additional observations from a re-analysis of the deposited data

How the results depend on the processing

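Over 12 alternatives, the differences of Aspn, Omd and Ogn, which chose these genes, lay between -0.48 and -0.28, between -0.32 and -0.17 and between -0.38 and -0.21. The replicate block and the mean of probe sets cannot move these values, since the design is balanced and each gene has 1 probe set. The median over the 9 genes was -0.15 after quantile normalization, and between -0.16 and -0.045 with 1 library left out. With the replicate block it was -0.093, as without it, and limma again called 0 genes. Calls over all genes were 27 above the median signal, 28 under a variance trend and 31 under its robust form, against 0. Genes with groups apart numbered 4773, between 6191 and 8208 with 1 library left out, and 8434 without saline replicate 1 and SAHA replicate 3, where fewer samples need to separate; members apart were then 4. Medians kept their sign in all 10 alternatives for 6 of the 14 lists. The cause of the other shifts was not tested. SEs of the dim genes Aspn, Lum and Kera were 0.107, 0.117 and 0.118, and those of the brighter Fmod, Ogn and Dcn were 0.107, 0.0903 and 0.0896. All of these were above the median of 0.0771 over all genes. Omd, also dim, had 0.0613, Bgn 0.0766 and Prelp 0.0601.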
